A study of Homo sapiens with 14 samples.

Results

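The genes described here make sterols and fatty acids or set the activity of the SREBP transcription factors that drive both pathways. They were 34 gene symbols taken from a list of names, with earlier results of these data known, among the 23106 counted in each library, with MSMO1 under that symbol and SC5D under its older symbol SC5DL. All 34 were found and all 34 passed the filter on low counts in each line. By role they comprised 8 enzymes from acetyl-CoA to squalene, 10 enzymes from squalene to cholesterol, 8 enzymes of fatty acid synthesis and desaturation, 5 regulators and 3 genes of sterol carriage.

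Cholesterol synthesis is costly in oxygen, since the epoxidation of squalene, the removal of methyl groups from lanosterol and the final ring desaturation each consume molecular oxygen, as do the fatty acid desaturases. SREBP precursors sit in the endoplasmic reticulum bound to SCAP, which carries them to the Golgi for cleavage when membrane sterols are low. INSIG1 and INSIG2 hold SCAP back in the endoplasmic reticulum, and cleaved SREBP-2 and SREBP-1 drive sterol and fatty acid genes respectively, INSIG1 among them.

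Polyadenylated RNA was sequenced from PC3, a prostate carcinoma line, and HCT116, a colorectal carcinoma line, both grown with foetal bovine serum in basal media that differed between the lines. Cells were kept in normoxia (21% O2) or incubated in hypoxia (0.5% O2) for 16 h. PC3 had 4 replicates of each condition and HCT116 had 3. A difference between the lines cannot be told apart from a difference between their media. Of the epithelial markers, EPCAM, KRT8 and KRT18 were high in all 14 libraries. CDH1 was at 309 to 428 CPM in PC3 but only 26.8 to 55.05 CPM in HCT116. The prostate luminal markers KLK3 and KLK2 were under 1 CPM (counts scaled to library size with TMM factors) in PC3, and 4 of 6 colon markers were under 1 CPM in HCT116, where CDX2 was detected. The summed level of 5 hypoxia-response genes was 335 to 486 CPM in normoxic and 1992 to 3529 CPM in hypoxic PC3 libraries. In HCT116 it was 90.1 to 100.02 CPM in normoxic and 561 to 804 CPM in hypoxic libraries. Most of each sum was NDRG1, at 276 to 426 CPM in normoxic and 1906 to 3409 CPM in hypoxic PC3. In HCT116 NDRG1 was at 72.2 to 81.97 CPM in normoxia and 406 to 648 CPM in hypoxia. CA9 stayed under 1 CPM in every PC3 library.

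Promoter sequences of 29 of the 34 genes were matched by symbol in RefSeq (GRCh38.p14), as the 250 bases upstream of the start site. Those of 4 genes are shown because the results turn on them. INSIG1 and INSIG2 had the largest hypoxia changes of the group in HCT116, SREBF2 encodes the sterol-directed SREBP, and HMGCS1, which makes HMG-CoA, had changes of opposite sign in the lines. Each was placed on GRCh37 by exact match and is printed up to the edge of the gene in the GENCODE annotation. Capitals mark, on either strand, the sterol response element core TCACNCCAC, the NF-Y box CCAAT and the hypoxia response element cores ACGTG and GCGTG.
INSIG1, chr7:155089338-155089485, plus strand: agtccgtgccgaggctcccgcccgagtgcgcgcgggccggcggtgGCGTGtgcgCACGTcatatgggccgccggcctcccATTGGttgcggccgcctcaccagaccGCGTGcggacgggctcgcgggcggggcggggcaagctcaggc
INSIG2, chr2:118845797-118846027, plus strand: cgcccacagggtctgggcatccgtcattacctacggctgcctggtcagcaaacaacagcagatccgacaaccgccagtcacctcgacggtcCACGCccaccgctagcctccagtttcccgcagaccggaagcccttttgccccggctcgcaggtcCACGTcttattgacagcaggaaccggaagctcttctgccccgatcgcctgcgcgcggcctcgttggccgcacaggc
SREBF2, chr22:42228859-42229108, plus strand: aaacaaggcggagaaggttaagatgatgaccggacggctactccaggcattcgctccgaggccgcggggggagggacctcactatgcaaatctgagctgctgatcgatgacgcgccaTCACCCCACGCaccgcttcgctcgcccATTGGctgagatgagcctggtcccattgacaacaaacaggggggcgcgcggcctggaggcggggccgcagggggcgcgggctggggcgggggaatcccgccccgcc
HMGCS1, chr5:43313615-43313764, minus strand: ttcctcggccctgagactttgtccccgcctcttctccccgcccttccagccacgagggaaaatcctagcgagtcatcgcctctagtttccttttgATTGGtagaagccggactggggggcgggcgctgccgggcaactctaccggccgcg
In the SREBF2 promoter the sterol response element core overlaps a GCGTG core on the opposite strand. ACGTG lies in both INSIG promoters, and INSIG1 holds a further palindrome, CACGTG, at -55 from the RefSeq start, inside the longer GENCODE gene. Over the full 250 bases, ACGTG was found in 7 of the 29 promoters (24.1%) against 18.7% of all 27305 RefSeq promoters. GCGTG was found in 21 (72.4%) against 31.9%, CCAAT in 18 (62.1%) against 33.0%, and TCACNCCAC in 1, that of SREBF2 (3.45%), against 0.875%. Promoters of the group and all RefSeq promoters were not matched for base composition. Some of the windows, such as those of FADS2, FADS1 and ACLY, lie wholly inside the GENCODE gene. A match describes the letters only.

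Depth was 98021966 to 123935458 counted reads per normoxic and 71228454 to 96159803 per hypoxic PC3 library. Every hypoxic PC3 library was thus shallower than every normoxic one. HCT116 libraries held 133067391 to 150630928. Counting error was small for all of the 34 genes but ABCA1 and ABCG1 in HCT116. The shallowest library, PC3 hypoxia replicate 4, also had 30 of the 34 genes above the mean of its condition. In PC3, hypoxic and normoxic libraries with the same replicate number deviated together across all genes, with correlations of 0.152 to 0.692. Libraries with different numbers reached 0.210, and the labels do not state a pairing. PC3 results are therefore given from the unpaired fit and, where the call differs, from a fit with the replicate number as a block (the paired fit). Fold changes are log2, hypoxia against normoxia, ± SE, from edgeR's quasi-likelihood test with p adjusted by Benjamini-Hochberg over all genes tested and a threshold of 0.05. Where the text says that a gene rose or fell, it passed this threshold.

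In HCT116 hypoxia raised most of the group and lowered none of it. By edgeR, 24 of 34 genes rose and 0 fell, against 14.6% and 11.3% of all genes tested. None of the 34 had an unadjusted p under 0.05 in the downward direction, and DESeq2 also called 0 lower. The median change was 0.49, where the median of all genes was 0.0018. Every hypoxic library lay above every normoxic one for 24 of the 34, against 20.3% of all genes tested. When the spread was estimated over both lines together, 8 of the 34 rose (MVD, IDI1, EBP, SCD, FASN, SREBF2, INSIG1 and INSIG2), against 6.05% of all genes.

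In PC3 the changes were smaller, and replicates differed in a way that both oxygen conditions shared. The unpaired fit called 2 of 34 genes higher, INSIG2 and ABCA1, against 6.03% of all genes, and 0 lower, against 5.29%. In the downward direction 1 gene, ELOVL6, had an unadjusted p under 0.05 by edgeR, and DESeq2 called 0 lower and 4 higher. The paired fit called 13 higher and 2 lower, against 14.9% and 13.6% of all genes. The median change was 0.23 against 0.0023 over all genes. In 20 of the 34 the hypoxic library was the higher in all 4 pairs, against 25.0% of all genes. Without pairing, every hypoxic library lay above every normoxic one for 3 genes, EBP, INSIG2 and ABCA1, against 9.62%.

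**Figure D1:**
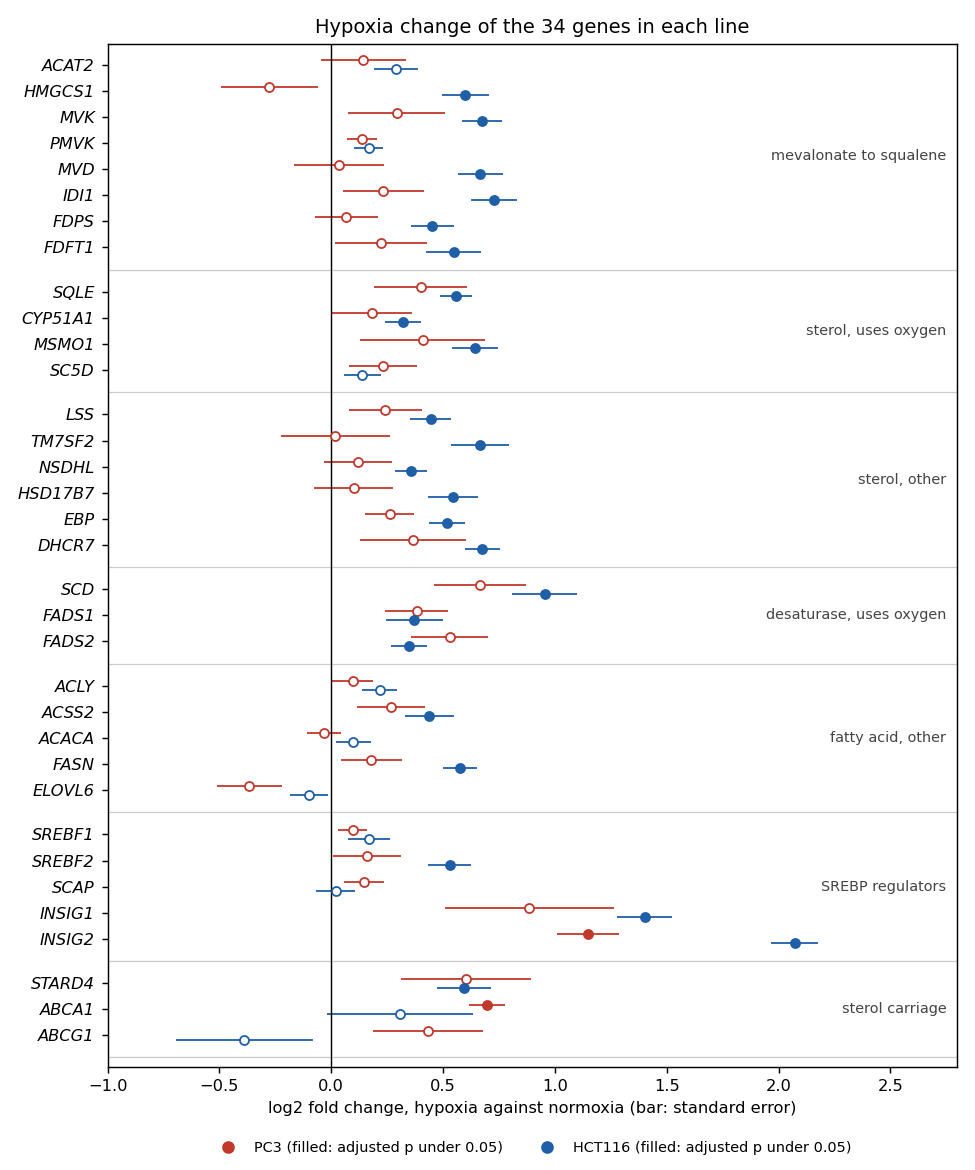
Log2 fold change in hypoxia against normoxia (x axis, bars are standard errors) of the 34 genes by role, PC3 in red (4 replicates per condition) and HCT116 in blue (3), with filled points for an adjusted p under 0.05 in the unpaired fit. In HCT116 24 points are filled, all to the right of 0, with INSIG2 at 2.07 and INSIG1 at 1.40 farthest out, and in PC3 2 are filled.

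Among the regulators, both INSIG genes led the response. RNA was pooled over the cells of a culture, so a change in the share of cells that express a gene and a change in its RNA per cell cannot be told apart. INSIG2 stood at 11.8, 12.999 and 14.1 CPM in the 3 normoxic HCT116 libraries and at 48.1, 62.3 and 51.7 CPM in the hypoxic ones. In PC3 it stood at 57.6, 41.6, 41.9 and 38.8 CPM in normoxia and 114, 98.1, 97.2 and 88.9 CPM in hypoxia. Neither line showed any overlap between conditions, and the hypoxic HCT116 level lay within or near that of normoxic PC3. The change was 2.07 ± 0.10 in HCT116 (4.21-fold, edgeR adjusted p = 1.61e-07) and 1.15 ± 0.14 in PC3 (2.22-fold, edgeR adjusted p = 0.00155).

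INSIG1, the INSIG gene that SREBP itself induces, was present at 71.05, 78.03 and 70.02 CPM in normoxic and 173, 237 and 163 CPM in hypoxic HCT116 libraries, a rise of 1.40 ± 0.12 (2.64-fold, edgeR adjusted p = 1.87e-05). PC3 libraries held 20.4, 15.8, 11.3 and 26.4 CPM in normoxia and 24.7, 30.4, 18.4 and 63.3 CPM in hypoxia. The PC3 conditions overlapped, but the hypoxic library was the higher in each pair, most so in pair 4. The unpaired PC3 change was 0.89 ± 0.38 (edgeR adjusted p = 0.164), and 0.41 without hypoxia replicate 4. The paired fit called it higher (0.80 ± 0.15, adjusted p = 0.00871). The ratio of INSIG1 to INSIG2 was between 4.95 and 6.01 in normoxic and between 3.15 and 3.80 in hypoxic HCT116 libraries, since INSIG2 changed more.

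SREBF2, encoding SREBP-2, rose in HCT116 from 152, 159.8 and 129 CPM to 189, 238 and 203 CPM (0.53 ± 0.10, edgeR adjusted p = 0.00267). In PC3 it stood at 88.2, 68.1, 64.9 and 94.2 CPM in normoxia and 92.2, 78.3, 74.2 and 106 CPM in hypoxia, with a change of 0.16 ± 0.15 (edgeR adjusted p = 0.541). The pairs all went up by a small amount, and the paired fit called it (0.16 ± 0.05, adjusted p = 0.0405). SREBF1, encoding SREBP-1, showed no call in either line. Its levels were 171, 176 and 136 CPM in normoxic and 176, 192 and 168 CPM in hypoxic HCT116, with a change of 0.17 ± 0.09 (edgeR adjusted p = 0.207). In PC3 they were 46.1, 43.7, 45.2 and 50.8 CPM and 50.8, 47.9, 48.7 and 50.3 CPM, with a change of 0.10 ± 0.06 (edgeR adjusted p = 0.378).

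SCAP, the SREBP escort, was close to level in both lines. It stood at 78.9, 67.3 and 69.7 CPM in normoxic and 77.3, 63.3 and 75.5 CPM in hypoxic HCT116, with a change of 0.02 ± 0.09 (edgeR adjusted p = 0.896). In PC3 it stood at 83.5, 87.9, 85.7 and 87.2 CPM in normoxia and 80.97, 98.5, 89.8 and 111 CPM in hypoxia, with a change of 0.15 ± 0.09 (edgeR adjusted p = 0.318). The sign of the HCT116 value turned with the scaling and with the library left out. RAI1 overlaps SREBF1 on the opposite strand, and MIR33A and MIR33B lie within SREBF2 and SREBF1.

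**Figure D2:**
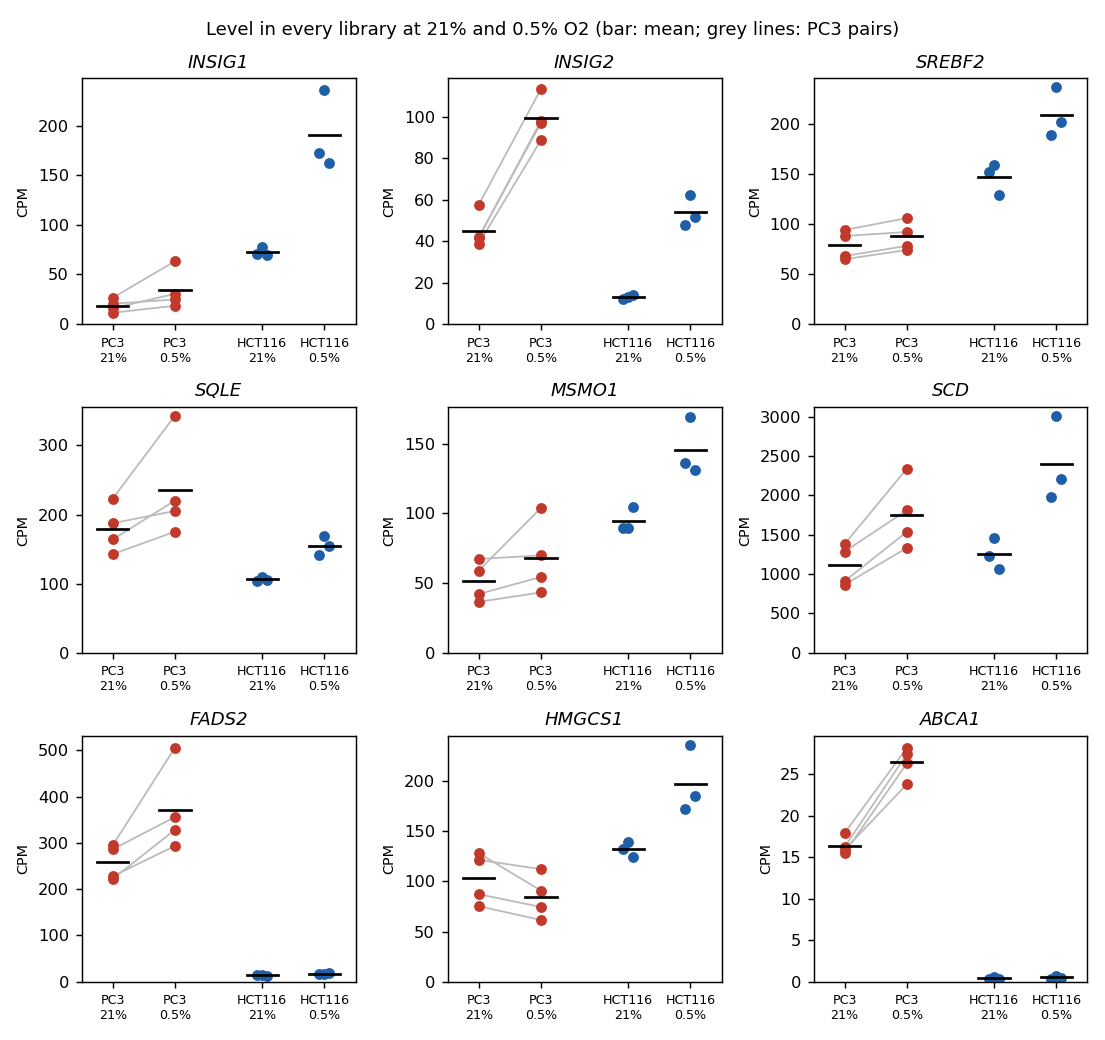
Level of 9 genes in every library (y axis, CPM from 0) at 21% and 0.5% O2 in PC3 (red, grey lines join libraries with the same replicate number) and HCT116 (blue), with the mean as a bar. INSIG2 separates the conditions in both lines, HMGCS1 goes down along all 4 PC3 lines and lies higher in hypoxia in HCT116, and FADS2 and ABCA1 are near the axis in HCT116.

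Of the 4 sterol enzymes that use oxygen, SQLE, CYP51A1 and MSMO1 rose in HCT116 and SC5D did not pass the test. SQLE, the squalene epoxidase, went from 105, 109 and 105 CPM in normoxia to 142, 168 and 155 CPM in hypoxia (0.56 ± 0.07, edgeR adjusted p = 0.000313). MSMO1, the methylsterol monooxygenase, went from 89.7, 89.2 and 105 CPM to 137, 169.5 and 131 CPM (0.64 ± 0.10, edgeR adjusted p = 0.00134). CYP51A1, the lanosterol demethylase, went from 161, 170.4 and 155 CPM to 183, 226 and 192 CPM (0.32 ± 0.08, edgeR adjusted p = 0.015). For these 3 genes all hypoxic HCT116 libraries lay above all normoxic ones. SC5D, the sterol C5 desaturase, overlapped between conditions, with 72.3, 77.01 and 87.4 CPM in normoxia and 87.4, 89.9 and 80.3 CPM in hypoxia (0.14 ± 0.08, edgeR adjusted p = 0.249).

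The same 4 enzymes were higher in hypoxia in all 4 PC3 pairs, although the unpaired fit called none. SQLE stood at 188, 164, 143 and 223 CPM in normoxia and 205, 220.3, 175 and 343 CPM in hypoxia, a change of 0.40 ± 0.21 (edgeR adjusted p = 0.242 unpaired and 0.0158 paired). MSMO1 stood at 67.4, 42.2, 36.6 and 58.98 CPM in normoxia and 69.9, 54.4, 43.4 and 104 CPM in hypoxia, a change of 0.41 ± 0.28 (edgeR adjusted p = 0.379 unpaired and 0.0502 paired). Pair 4 had the largest difference for both, and without hypoxia replicate 4 the unpaired changes were 0.17 and 0.14. In pairs 1 and 3 each of the 4 enzymes differed by less than the SD of its normoxic PC3 libraries. MSMO1 and CYP51A1 did so in pair 2 as well. CYP51A1 held 174, 141, 133 and 176 CPM in normoxia and 181, 147, 136 and 241 CPM in hypoxia (0.18 ± 0.18, adjusted p = 0.555 by edgeR), and without hypoxia replicate 4 its change was -0.00088. SC5D held 105, 89.5, 84.04 and 113 CPM in normoxia and 117, 105, 89.4 and 147 CPM in hypoxia (0.23 ± 0.15, edgeR adjusted p = 0.365 unpaired and 0.0342 paired).

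The mevalonate branch, which builds squalene without oxygen, had 6 of 8 enzymes higher in hypoxic HCT116. IDI1, the isopentenyl diphosphate isomerase, had the largest change, from 126, 135 and 136 CPM to 212, 253 and 185 CPM (0.73 ± 0.10, edgeR adjusted p = 0.000606). MVK, mevalonate kinase, rose from 22.6, 22.8 and 21.9 CPM to 33.04, 40.9 and 32.1 CPM (0.67 ± 0.09, edgeR adjusted p = 0.00042). MVD, the mevalonate diphosphate decarboxylase, rose from 63.2, 63.7 and 57.2 CPM to 82.9, 113 and 92.9 CPM (0.67 ± 0.10, edgeR adjusted p = 0.000865). None of these 3 overlapped between conditions, and hypoxia replicate 2 was the highest library for each. FDFT1, squalene synthase, rose from 202, 221 and 213 CPM to 263, 384 and 271 CPM (0.55 ± 0.12, edgeR adjusted p = 0.00827). FDPS, farnesyl diphosphate synthase, rose by 0.45. ACAT2 (0.29, edgeR adjusted p = 0.0511), which condenses acetyl-CoA, and PMVK (0.17, edgeR adjusted p = 0.0855), phosphomevalonate kinase, did not pass.

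HMGCS1, at the branch into mevalonate, was the enzyme whose sign differed most plainly between the lines. In HCT116 it rose from 132, 139.7 and 124 CPM to 172, 236 and 185 CPM (0.60 ± 0.10, edgeR adjusted p = 0.00212). In PC3 it stood at 128, 87.3, 75.4 and 122 CPM in normoxia and 90.9, 74.6, 61.6 and 112 CPM in hypoxia. The hypoxic PC3 library was the lower in all 4 pairs, though the conditions overlapped, with a change of -0.28 ± 0.22 (edgeR adjusted p = 0.446). With a library left out the change ran from -0.44 to -0.14. The paired fit called it lower (-0.28 ± 0.07, adjusted p = 0.0234). The other 7 mevalonate enzymes had PC3 changes between 0.04 (MVD) and 0.29 (MVK), and none of the 7 was called by the unpaired or the paired fit.

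All 6 sterol enzymes downstream of squalene that use no oxygen rose in HCT116. DHCR7, 7-dehydrocholesterol reductase, rose from 141, 140.3 and 122 CPM to 201, 231 and 204 CPM (0.68 ± 0.08, edgeR adjusted p = 0.00015). TM7SF2, a sterol C14 reductase of low abundance, rose from 9.98, 10.3 and 8.01 CPM to 13.1, 17.9 and 13.3 CPM (0.66 ± 0.13, edgeR adjusted p = 0.00397). VPS51 overlaps TM7SF2 on the same strand. HSD17B7, the 3-keto sterol reductase, rose from 19.7, 20.4 and 24.6 CPM to 29.3, 36.1 and 27.9 CPM (0.54 ± 0.11, edgeR adjusted p = 0.00529). EBP, the sterol isomerase, rose from 75.5, 76.7 and 75.2 CPM to 111, 116 and 94.5 CPM (0.52 ± 0.08, edgeR adjusted p = 0.00118). The conditions did not overlap for any of the 6. LSS, lanosterol synthase, rose by 0.44 and NSDHL, the C4 dehydrogenase, by 0.36. In PC3 the 6 changes ran from 0.02 (TM7SF2) to 0.36 (DHCR7), and LSS alone was called, by the paired fit (0.25 ± 0.05, adjusted p = 0.011).

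The 3 fatty acid desaturases, which use oxygen, rose in HCT116, and the paired fit called all 3 in PC3. SCD, stearoyl-CoA desaturase, stood at 1225, 1462 and 1068 CPM in normoxic and 1979, 3011 and 2202 CPM in hypoxic HCT116 (0.95 ± 0.15, edgeR adjusted p = 0.000986). In PC3 it went from 1287, 910.4, 866 and 1383 CPM to 1811, 1538, 1333 and 2339 CPM (0.66 ± 0.21, edgeR adjusted p = 0.0684 unpaired and 0.000915 paired). The rise in each PC3 pair was similar in fold, from 0.49 to 0.76 on the log2 scale.

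FADS1 and FADS2, desaturases of polyunsaturated fatty acid synthesis, lie on opposite strands and overlap each other. FADS2 stood at 286, 222, 228 and 295 CPM in normoxic and 356, 328, 293 and 506 CPM in hypoxic PC3 (0.53 ± 0.17, edgeR adjusted p = 0.0782 unpaired and 0.00573 paired). In HCT116 its levels were far lower, with 13.5, 14.4 and 12.5 CPM in normoxia and 15.7, 17.2 and 17.997 CPM in hypoxia (0.35 ± 0.08, edgeR adjusted p = 0.0088). FADS1 stood at 170.2, 174, 165 and 219 CPM in normoxic and 202, 233, 206 and 306 CPM in hypoxic PC3 (0.38 ± 0.14, edgeR adjusted p = 0.114 unpaired and 0.0043 paired). In PC3 both genes were higher in hypoxia in all 4 pairs. In HCT116 FADS1 went from 85.9, 104 and 82.4 CPM to 99.9, 142 and 107 CPM, with overlap (0.37 ± 0.13, edgeR adjusted p = 0.0497). This last call sat at the threshold, and it was lost without hypoxia replicate 2 (0.20, edgeR adjusted p = 0.181), normoxia replicate 1 (0.32, 0.123), normoxia replicate 3 (0.30, 0.0892) or hypoxia replicate 3 (0.44, 0.0674).

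The fatty acid enzymes that use no oxygen moved less evenly. FASN, fatty acid synthase, rose in HCT116 from 1466, 1276 and 1237 CPM to 1909, 2061 and 1894 CPM (0.58 ± 0.08, edgeR adjusted p = 0.000368). ACSS2, which makes acetyl-CoA from acetate, rose by 0.44 (edgeR adjusted p = 0.0134). ACLY, ATP citrate lyase (0.22), ACACA, acetyl-CoA carboxylase (0.10), and ELOVL6, a fatty acid elongase (-0.10), did not pass in HCT116. In PC3 the paired fit called FASN (0.17 ± 0.05, adjusted p = 0.0386) and ACSS2 (0.25 ± 0.07, adjusted p = 0.0313) higher and ELOVL6 lower. ELOVL6 stood at 17.2, 25.4, 22.5 and 21.1 CPM in normoxic and 13.5, 20.96, 16.99 and 15.3 CPM in hypoxic PC3, lower in all 4 pairs (-0.37 ± 0.15, edgeR adjusted p = 0.139 unpaired and 0.0038 paired). ACLY (0.10) and ACACA (-0.03) were not called in PC3 by the unpaired or the paired fit.

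Of the 3 genes of sterol carriage, none passed the test of a difference in change between the lines (edgeR adjusted p of 0.364 to 0.9999). ABCA1, which exports cholesterol, went from 16.2, 15.5, 17.9 and 15.9 CPM to 27.4, 26.3, 28.2 and 23.8 CPM in PC3 without overlap (0.69 ± 0.08, edgeR adjusted p = 0.00122). In HCT116 it was barely detected, at 0.335, 0.56 and 0.358 CPM in normoxia and 0.35, 0.727 and 0.457 CPM in hypoxia (0.31 ± 0.33, edgeR adjusted p = 0.52). STARD4, a soluble sterol carrier, rose in HCT116 from 34.97, 39.7 and 43.3 CPM to 56.1, 70.3 and 49.6 CPM (0.59 ± 0.12, edgeR adjusted p = 0.00517). Its PC3 change of 0.60 ± 0.29 was the same size and was called by the paired fit alone (edgeR adjusted p = 0.213 unpaired and 0.00347 paired). ABCG1, another sterol exporter, reached 5.36 CPM at most, with changes of 0.43 in PC3 and -0.39 in HCT116 that did not pass.

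The 7 oxygen-using enzymes were compared with the other 19 enzymes. In HCT116 6 of the 7 rose and 14 of the 19 rose, against 14.6% of all genes, with medians of 0.37 and 0.52. The difference of the medians, oxygen-using minus other, was -0.15 with an SD of 0.079 over the hypoxic libraries, and -0.015 without hypoxia replicate 2. In PC3 the oxygen-using median was the higher, with medians of 0.40 and 0.14 and a difference of 0.26 with an SD of 0.13. All 7 oxygen-using enzymes were higher in hypoxia in all 4 PC3 pairs, as were 8 of the other 19, against 25.0% of all genes. In the paired fit 5 of the 7 rose (SQLE, SC5D, SCD, FADS1 and FADS2) and 3 of the 19 rose (LSS, ACSS2 and FASN), with 2 lower (HMGCS1 and ELOVL6). That fit called 14.9% of all genes higher and 13.6% lower, so the counts among the 19 were close to the background. By pair, the median log2 ratio of the oxygen-using enzymes was 0.15, 0.42, 0.30 and 0.62 in pairs 1 to 4, and that of the others was 0.01, 0.13, -0.01 and 0.25. The oxygen-using median was the higher in each pair. Of the 7, SCD and FADS2 had the largest changes in PC3, and FADS1 lay below SQLE and MSMO1.

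The sterol arm (18 enzymes) and the fatty acid arm (8 enzymes) were compared in the same way. In HCT116 15 of 18 sterol enzymes and 5 of 8 fatty acid enzymes rose, against 14.6% of all genes. The medians were 0.55 and 0.36, with a difference of 0.19 and an SD of 0.061. In PC3 the medians were 0.20 and 0.22, which differed by -0.02 with an SD of 0.11. The paired PC3 fit called 3 of 18 sterol enzymes higher and 1 lower, and 5 of 8 fatty acid enzymes higher and 1 lower, against 14.9% and 13.6% of all genes.

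**Figure D3:**
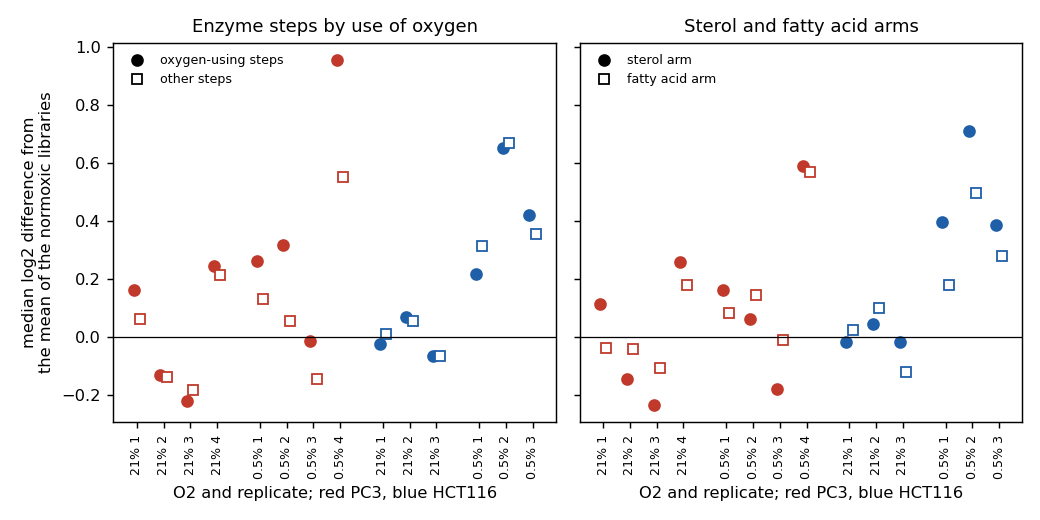
Median log2 difference of each library from the mean of its line's normoxic libraries (y axis) over the oxygen-using and other enzymes (left) and over the sterol and fatty acid arms (right), for every library by O2 and replicate (x axis), PC3 in red and HCT116 in blue. PC3 hypoxia replicate 4 (0.96 for the oxygen-using enzymes) and HCT116 hypoxia replicate 2 (0.65) stand highest in their lines, and the PC3 normoxic libraries spread from -0.22 to 0.25.

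The sterol enzymes varied together between replicates of one condition. In normoxic PC3, 16 of the 18 lay above their condition mean in replicate 1 and in replicate 4, and 1 of 18 did in replicate 2 and in replicate 3. In hypoxic PC3 the corresponding counts for replicates 1 to 4 were 10, 1, 0 and 18. The median deviation of the sterol arm ran from -0.23 to 0.26 in normoxic and from -0.34 to 0.48 in hypoxic PC3, a range as wide as the hypoxia change or wider. In HCT116 it ran from -0.02 to 0.04 in normoxia and from -0.11 to 0.21 in hypoxia, where all 18 were above the mean in replicate 2. Without HCT116 hypoxia replicate 2, 23 of the 34 genes still rose. Without PC3 hypoxia replicate 4, the unpaired PC3 changes were 0.055 for DHCR7, 0.35 for STARD4, 0.24 for FADS1 and 0.35 for FADS2, and those of SC5D, LSS, ACSS2, FASN and SREBF2 lay between 0.057 (FASN) and 0.14 (LSS). With both PC3 libraries numbered 4 left out, an alternative chosen after seeing the data, the unpaired fit called INSIG2, ABCA1 and FADS1 higher.

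The hypoxia change was then compared between the lines as an interaction. INSIG2 was the 1 gene of 34 whose change differed, by 0.91 ± 0.19 in favour of HCT116 (edgeR adjusted p = 0.0194), where 1.31% of all genes were called more positive in HCT116 and 1.01% more positive in PC3. That call was lost without HCT116 normoxia replicate 1 (0.85, edgeR adjusted p = 0.0622), normoxia replicate 2 (0.91, 0.0532) or hypoxia replicate 2 (0.79, 0.0781). No gene had a change more positive in PC3 at an unadjusted p under 0.05 by edgeR, and DESeq2 called 0 in that direction and 2, INSIG2 and HMGCS1, in the other. With the replicate block, 8 of 34 were more positive in HCT116 and 0 in PC3, against 4.58% and 3.85% of all genes. This block joined libraries by number in both lines, although the numbers were not taken to pair the HCT116 libraries. The 5 largest of these were INSIG2 (0.90 ± 0.11, adjusted p = 0.000551), HMGCS1 (0.85 ± 0.11, adjusted p = 0.00102), TM7SF2 (0.64 ± 0.14, adjusted p = 0.0176), MVD (0.61 ± 0.11, adjusted p = 0.0063) and IDI1 (0.48 ± 0.12, adjusted p = 0.0343) by the edgeR fit with the block. FASN, FDPS and SREBF2 were the others. Without the block HMGCS1 differed by 0.86 ± 0.28 (edgeR adjusted p = 0.134). None of the 7 oxygen-using enzymes was called, with or without the block, and their differences lay between -0.19 (FADS2) and 0.28 (SCD). At the spread of these libraries a difference of that size was not resolved.

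In normoxia the lines already differed in most of the group, as they did in most genes. By edgeR, 15 of 34 were higher in HCT116 and 12 lower, against 38.9% and 42.4% of all genes, so the counts were close to the background. The 5 largest differences toward HCT116 were STARD4 (2.24), FDFT1 (2.04), INSIG1 (1.98), SREBF1 (1.79) and ELOVL6 (1.69), on the log2 scale. The 5 largest toward PC3 were ABCA1 (-5.29), FADS2 (-4.26), INSIG2 (-1.79), ACSS2 (-1.70) and ABCG1 (-1.69). Both INSIG genes thus differed between the lines in opposite directions, with INSIG1 at 73.03 ± 4.36 CPM in HCT116 (SD, n = 3) and 18.5 ± 6.45 CPM in PC3 (SD, n = 4), and INSIG2 at 12.99 ± 1.17 and 44.99 ± 8.53 CPM. The ratio of SREBF1 to SREBF2 was between 1.05 and 1.12 in normoxic HCT116 and between 0.523 and 0.696 in normoxic PC3 libraries.

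**Figure D4:**
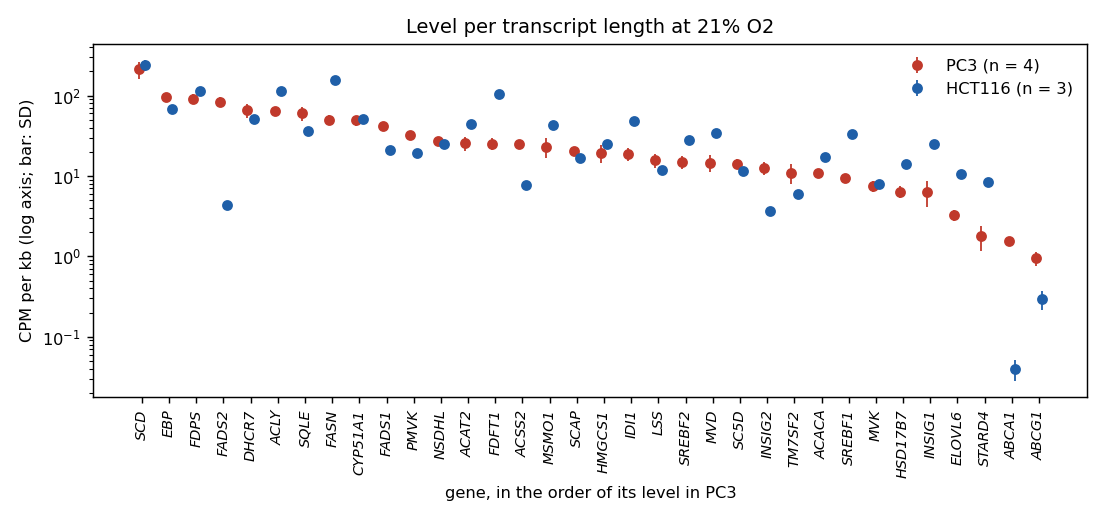
Level at 21% O2 as CPM per kb of the canonical transcript (y axis, log scale; mean with SD) of the 34 genes in the order of their PC3 level (x axis), PC3 in red (n = 4) and HCT116 in blue (n = 3). SCD is the highest in both lines, and FADS2, ACSS2, INSIG2 and ABCA1 lie well below the PC3 points in HCT116.

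Per kb of transcript, SCD was the most abundant gene of the group in both lines, at 212 ± 49.8 CPM per kb in PC3 (SD, n = 4) and 239 ± 37.9 in HCT116 (SD, n = 3). In PC3 it was followed by EBP (95.5 ± 2.46), FDPS (91.4 ± 11.98), FADS2 (83.3 ± 12.3) and DHCR7 (65.4 ± 12.1). EBP, FDPS and FADS2 did not differ beyond their spread. In HCT116 it was followed by FASN (157 ± 14.5), ACLY (115 ± 7.61), FDPS (113 ± 3.41) and FDFT1 (104 ± 4.69), of which ACLY and FDPS did not differ beyond their spread. ABCA1 and ABCG1 were the lowest in both. These levels use 1 transcript length per gene, and 10 of the 34 genes overlap another counted gene, 5 of them on the same strand, so some reads may not be their own.

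A further 38 genes of sterol and fatty acid metabolism were examined as a list of names, also chosen with earlier results of these data known. In HCT116 10 of 38 rose and 3 fell, against 14.6% and 11.3% of all genes. In PC3 2 rose and 1 fell by the unpaired fit, against 6.03% and 5.29%, and the paired fit called 11 higher and 3 lower, against 14.9% and 13.6%. The medians were 0.10 and 0.11. In HCT116 the genes that rose by at least 0.5 included LPIN1, a phosphatidate phosphatase (0.55 ± 0.10, adjusted p = 0.00303 by edgeR), SLC25A1, the mitochondrial citrate carrier (0.54 ± 0.08, adjusted p = 0.000866), and ACACB, the mitochondrial acetyl-CoA carboxylase (0.50 ± 0.10, adjusted p = 0.0043). GPAM, which starts glycerolipid synthesis, fell by edgeR in PC3 (-0.55 ± 0.13, adjusted p = 0.024) and in HCT116 (-0.40 ± 0.09, adjusted p = 0.00689). MBTPS1, the protease that first cleaves SREBP, rose in HCT116 (0.26 ± 0.06, adjusted p = 0.00889 by edgeR), and MBTPS2, the protease that cleaves it next, did not pass in either line by the unpaired fit, while the paired fit called it lower in PC3 (-0.18 ± 0.06, adjusted p = 0.0494). LPIN1 was called higher in PC3 by the paired fit alone (0.37 ± 0.07, adjusted p = 0.0102).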

How the data were processed

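Polyadenylated RNA-seq of PC3 and HCT116 cells at 21% O2 or after 16 h at 0.5% O2 was used, 14 libraries in all. The authors removed reads that matched the added ERCC standards, aligned the rest to GRCh37 with HISAT2 (2.05), and deposited raw counts per RefSeq gene from HTSeq (0.5.4p3, intersection-strict), without normalisation. The strand setting and RefSeq release were not given in the sources used here, so overlapping genes and genes with pseudogene copies (FDPS, HSD17B7) are uncertain. ERCC counts, which the authors used for scaling, were not used here, so levels are relative to the total RNA counted.

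Genes were filtered with filterByExpr, scaled by TMM and tested by the quasi-likelihood test of edgeR 4.0.16 (limma 3.58.1, R 4.3.3) within each line, adjusted by Benjamini-Hochberg and called at 0.05. The interaction of line and oxygen and the line difference in normoxia were fitted over all 14 libraries. CPM used TMM factors of all 14. Alternatives were other scalings, other filters, DESeq2 1.42.0, 1 fit over both lines, a replicate block and each library left out. The labels do not say that replicate numbers pair libraries. In PC3 the numbers were taken to pair them, with correlations of deviations from the group means of 0.692, 0.280, 0.152 and 0.295. Libraries with different numbers reached 0.210 there (normoxia 4 with hypoxia 2). In HCT116 the same-number values were 0.0920, 0.152 and 0.0354, against at most 0.0094 for different numbers. No pairing was taken for the HCT116 hypoxia change, but the interaction fit with the block used the numbers in both lines. No 2 replicates agreed within counting error (chi-square per gene of 12.5 to 268). The fit was tested on simulated data. Promoter motifs were searched on both strands. The members and lists were chosen with earlier results of these data known. Values in every library are given for the oxygen-using enzymes, the regulators and each gene past the threshold with a log2 change of at least 0.5, the 5 largest differences each way between lines are named, and of the other pathway genes those past the threshold with at least 0.5. Some genes that this rule would name are not reported here.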

Additional observations from a re-analysis of the deposited data

Results flagged for a closer look

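In 68 groups of 4 PC3 libraries, 5 values lay far from the other 3 by Dixon's criterion, where chance gives about 1 in 20 (3.4 of 68). HSD17B7 was at 12.2 CPM in normoxia replicate 4, where the others lay between 8.78 and 9.22 CPM, and at 14.5 CPM in hypoxia replicate 4, where the others lay between 8.75 and 9.52 CPM. DHCR7 was at 350.4 CPM in hypoxia replicate 4 against 162 to 186 CPM. FADS1 was at 219 CPM in normoxia replicate 4 against 165 to 174 CPM. INSIG2 was at 57.6 CPM in normoxia replicate 1 against 38.8 to 41.9 CPM.

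The hypoxia change differed between the lines for INSIG2, by 0.91 (log2, HCT116 minus PC3, edgeR adjusted p = 0.0194). For HMGCS1 the hypoxic library was the lower in all 4 PC3 pairs and the higher in HCT116 throughout. The difference of its changes was 0.86, with an edgeR adjusted p of 0.134 without and 0.00102 with the replicate block, used in both lines.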

How the results depend on the processing

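For INSIG2 and ABCA1 in PC3 and for 23 of the 24 HCT116 calls, direction and side of the threshold held under every scaling, filter and left-out library and under DESeq2, with FADS1 as the exception. In PC3 the count of 2 genes higher was 2 to 2 with a library left out, 4 by DESeq2, 4 in 1 fit over both lines and 13 with the replicate block, which also called 2 lower. The HCT116 count of 24 was 23 to 25 with a library left out and 8 in 1 fit over both lines, where PC3 contributed to the spread. Genes with a more positive change in HCT116 numbered 1, or 0 to 3 with a library left out, 2 by DESeq2 and 8 with the replicate block. In HCT116, where the numbers were not taken to pair the libraries, the block called the same 24 higher. In HCT116 the oxygen-using minus other median of -0.15 ran from -0.21 to -0.015 (without hypoxia replicate 2), and the sterol minus fatty acid median of 0.19 ran from 0.11 to 0.25. Total-count scaling moved the median of all genes to -0.10 in PC3 and to -0.13 between the lines. It turned SREBF1 in PC3 to -0.010 and SCAP in HCT116 to -0.073, and SCAP, between -0.043 and 0.10 with a library left out, turned below 0 in 4 of these 6 fits. CYP51A1 in PC3 ran from -0.00088 without hypoxia replicate 4 to 0.30. FDPS, LSS and SCAP, called between the lines, lost the call under some of these settings. The cause was not tested.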

Other observations

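Among the 38 further genes of the pathway, the following were chosen after their values were seen. ME1, the malic enzyme that supplies NADPH to fatty acid synthesis, had opposite changes in the lines, at 92.5, 83.2, 87.7 and 93.1 CPM in normoxic and 112, 105, 99.1 and 116 CPM in hypoxic PC3, and at 131, 145 and 139 CPM in normoxic and 98.8, 116 and 102 CPM in hypoxic HCT116. It rose in PC3 (0.28 ± 0.07, adjusted p = 0.0386 by edgeR) and fell in HCT116 (-0.37 ± 0.08, adjusted p = 0.00513). The difference between the lines was -0.67 ± 0.11, adjusted p = 0.00446 by edgeR. CYB5R3, the reductase that passes electrons to the desaturases, rose in HCT116 (0.28 ± 0.06, adjusted p = 0.00826 by edgeR). SOAT1, which esterifies cholesterol, fell in HCT116 (-0.23 ± 0.07, adjusted p = 0.025 by edgeR). NPC1, which releases cholesterol from lysosomes, rose in HCT116 (0.34 ± 0.07, adjusted p = 0.00632 by edgeR), and the paired fit also called it higher in PC3 (0.29 ± 0.06, adjusted p = 0.00995). NPC2, its lumenal partner, rose in PC3 (0.42 ± 0.11, adjusted p = 0.0412 by edgeR) and had a change of 0.02 ± 0.09 in HCT116.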
